A study of Homo sapiens with 12 samples.

Results

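Histone methylation writers and erasers are the enzymes, with the subunits of Polycomb repressive complex 2 (PRC2), that add methyl groups to lysines of histones H3 and H4 or take them off. Genes were taken by symbol, as the probe sets whose platform annotation names 1 of 37 such genes alone, and where a gene had several sets its brightest one, by the mean of the 12 arrays, stands for it. This gave 36 genes of the 19775 tested. ASH1L, a methyltransferase of H3 lysine 36, had no probe set that names it alone and is not reported. The 36 genes have 132 probe sets in all, and 31 of them have more than 1 set.

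The samples were 4 groups of 3 arrays, labelled as biological replicates with a separate array each. TC71 cells received 100 nM mithramycin for 6 h or the control solvent for 6 h, and TC32 cells received 100 nM mithramycin for 6 h or the control solvent for 6 h. TC71 and TC32 are established lines of Ewing sarcoma, a tumour driven by fusion of EWSR1 with an ETS gene, and mithramycin is an antibiotic that binds GC-rich DNA. Each line is a single tumour's cells in culture, so values hold for these lines. Values are log2 RMA values, and log2 fold changes are mithramycin minus control in 1 line unless another contrast is named, with the standard error (SE) of the limma model. A gene is called at a limma adjusted p under 0.05, adjusted over all 19775 genes.

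Methylated lysines are read by other proteins, so the writers and erasers set marks whose meaning depends on the residue. H3K4 and H3K36 methylation mark active enhancers, promoters and transcribed gene bodies, and H3K79 methylation marks transcribed genes. Trimethylation of H3K9, H3K27 and H4K20 marks silent chromatin. Writers carry a SET domain, apart from DOT1L, and erasers are either flavin-dependent oxidases or iron-dependent enzymes with a JmjC domain. In Ewing sarcoma the fusion protein recruits several chromatin regulators, and Polycomb genes and the eraser KDM1A are among those studied in this tumour.

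Among all genes on the arrays, 16.1% were called lower and 19.4% higher with mithramycin in TC71, and 19.4% lower and 25.6% higher in TC32. Lower genes made up 45.5% of the calls in TC71 and 43.1% in TC32. With arrays centred on housekeeping genes these shares were 74.1% and 69.8%, and with arrays centred on hybridization controls 32.6% and 79.6%. The housekeeping centring moved the median change of all genes by -0.12 in TC71 and -0.13 in TC32, and the hybridization control centring by 0.08 and -0.15. Of 8 Ewing sarcoma markers measured, all had medians over the arrays of 6.87 or more (CD99 at 11.6), and the 13 blood, epithelial and endothelial markers stayed between 2.04 and 5.40 on every array. The 5 fibroblast markers spanned 2.23 to 11.6, with COL3A1, also a matrix gene of mesenchymal cells, at a median of 10.6. With mithramycin 3 of the 5 were called higher in TC71 and 0 in TC32. Of the blood markers 0 of 4 were called higher in TC71 and 2 in TC32, of the epithelial markers 0 of 5 and 2, and of the endothelial markers 1 of 4 in each line. Of the 8 Ewing sarcoma markers 4 were called lower and 1 higher in TC71, and 3 lower and 0 higher in TC32. Their part in the results was not tested. The array medians lay between 4.38 and 4.47. The beta-actin 3' minus 5' difference, which widens as RNA degrades, was between 0.80 and 0.99 on the TC71 mithramycin arrays and 1.08, 1.28 and 2.0 on the TC71 control arrays, and between 0.51 and 0.68 on the TC32 mithramycin arrays and 0.67 and 0.74 on the TC32 control arrays.

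Most of the 36 genes fell with mithramycin, in each line. They were chosen with earlier results of these data known, so their shares against all genes are descriptions. In TC71, 24 of the 36 fell and 1 rose, which is 66.7% lower against 16.1% of all genes, and 2.78% higher against 19.4%. In TC32, 28 of the 36 fell and 1 rose, which is 77.8% lower against 19.4% of all genes, and 2.78% higher against 25.6%. The 24 that fell in TC71 also fell in TC32, whereas 12.7% of all genes were lower in both lines, and 1 gene was higher in both lines, against 13.1% of all genes. The median change of the 36 genes was -0.47 in TC71 and -0.57 in TC32, and that of all genes was 0.07 and 0.08. The genes are brighter than most, with a mean of at least 6 for 32 of the 36 (88.9%) against 42.4% of all genes. In a separate fit and adjustment over the 8386 genes with such a mean, 31.2% were lower in TC71 and 36.0% in TC32, and of the 32 histone methylation genes 23 were lower in TC71 and 26 in TC32. In that fit 2 of the 32 were higher in each line, against 33.1% of such genes in TC71 and 35.4% in TC32, namely SUV39H2 in both with KDM1A in TC71 and EHMT2 in TC32, neither of which was called over all 19775 genes. In these bulk samples fewer cells and less RNA per cell cannot be told apart, and a change is relative to the other transcripts on the array.

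The fall also showed as a lack of overlap between arrays. In TC71 all mithramycin arrays lay below all control arrays for 27 of the 36 genes, against 20.6% of all genes. In TC32 this held for 30 of the 36, against 20.8% of all genes. The mithramycin arrays lay above all control arrays for 2 of the 36 genes in each line, against 30.8% of all genes in TC71 and 30.0% in TC32. Falls of at least 2-fold were called for 8 genes in TC71 (2.49% of all genes) and for 11 genes in TC32 (3.39% of all genes), and the 8 of TC71 were among the 11 of TC32. With that beta-actin measure in the model 24 genes were lower in TC71 and 28 in TC32, the same numbers as without it. Of all 19775 genes, 2461 were then lower in TC71 and 3760 in TC32. With centring on housekeeping genes 29 were lower in TC71 and 31 in TC32, against 23.2% and 26.2% of all genes. With centring on hybridization controls 24 and 30 were lower, against 10.8% and 22.8% of all genes.

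**Figure D1:**
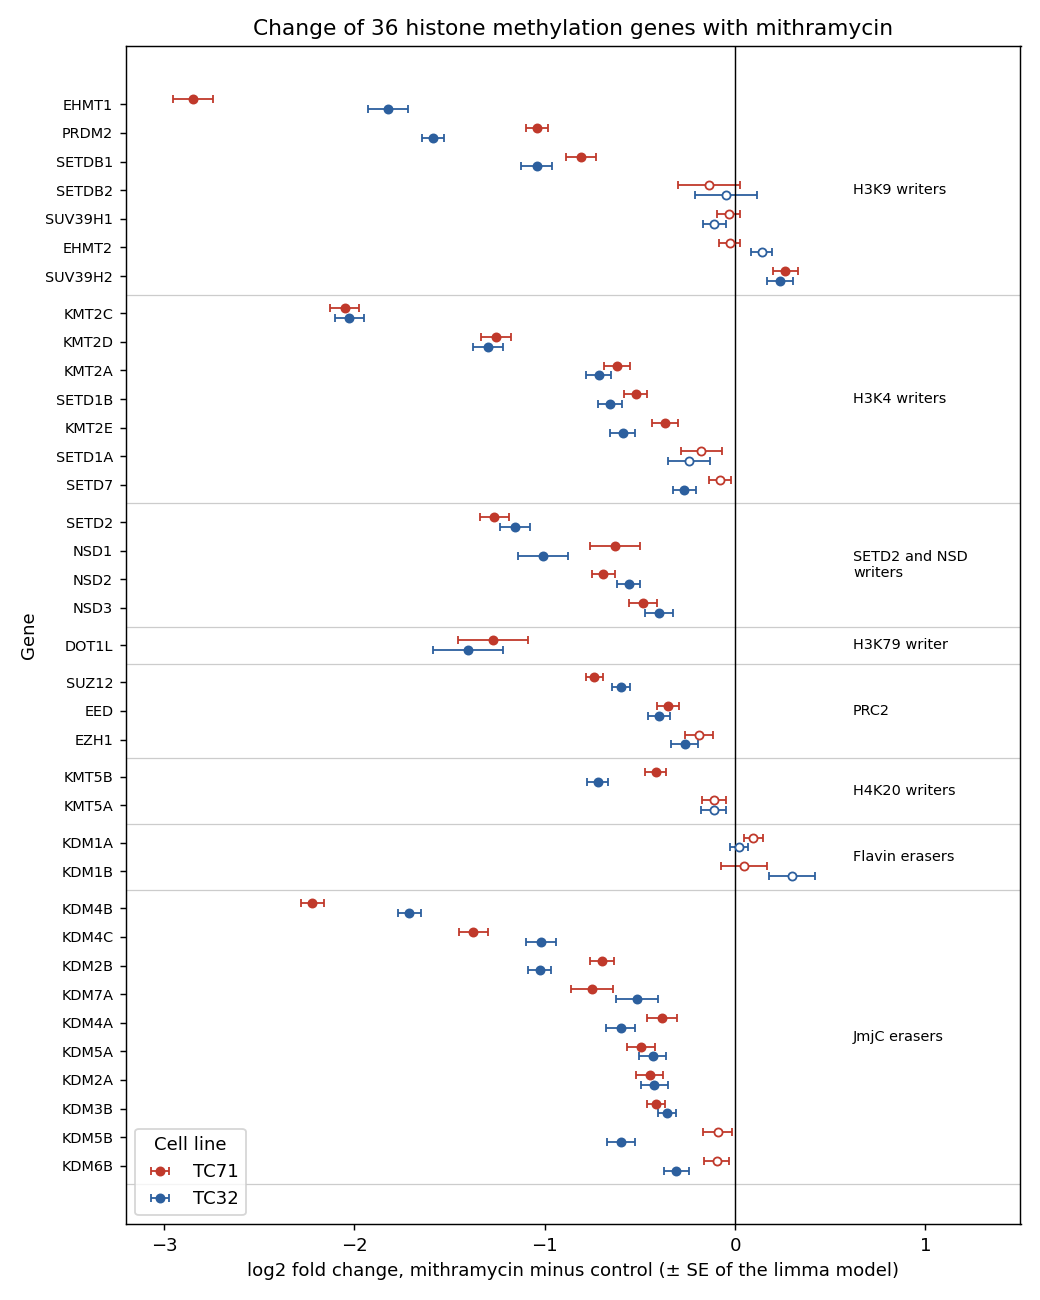
Log2 fold change with mithramycin of each of the 36 genes, in TC71 and TC32, by role of the gene. Points are means of 3 arrays against 3, bars are the standard error of the limma model, and filled points are called at an adjusted p under 0.05. EHMT1 lies furthest to the left, at -2.85 in TC71, and SUV39H2 is the one gene called higher.

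Because mithramycin binds GC-rich DNA, the promoters of 5 genes are shown, the 3 with the lowest mean change of both lines (EHMT1, KMT2C and KDM4B), the closest relative of EHMT1 that was not called (EHMT2) and the gene called higher (SUV39H2). They were chosen after the changes were known. Each sequence runs from 250 bases before to 50 bases after the RefSeq gene start (GRCh38.p14), and capitals mark the GC box GGGCGG on either strand, with overlapping matches counted.
EHMT1, chr9:137618755-137619054, plus strand: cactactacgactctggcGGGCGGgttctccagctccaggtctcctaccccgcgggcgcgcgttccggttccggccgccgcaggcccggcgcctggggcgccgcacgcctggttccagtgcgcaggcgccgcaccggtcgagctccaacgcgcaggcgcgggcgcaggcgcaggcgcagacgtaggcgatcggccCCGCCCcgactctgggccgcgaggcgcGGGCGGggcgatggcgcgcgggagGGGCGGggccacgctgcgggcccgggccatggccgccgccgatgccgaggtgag
KMT2C, chr7:152435954-152436253, minus strand: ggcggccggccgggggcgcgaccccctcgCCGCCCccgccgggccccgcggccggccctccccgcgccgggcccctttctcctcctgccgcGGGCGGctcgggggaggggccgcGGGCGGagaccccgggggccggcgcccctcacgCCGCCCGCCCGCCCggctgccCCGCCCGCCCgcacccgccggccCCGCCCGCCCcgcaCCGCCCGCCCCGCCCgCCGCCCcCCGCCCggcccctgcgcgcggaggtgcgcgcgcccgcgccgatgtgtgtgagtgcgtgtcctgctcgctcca
KDM4B, chr19:4968863-4969162, plus strand: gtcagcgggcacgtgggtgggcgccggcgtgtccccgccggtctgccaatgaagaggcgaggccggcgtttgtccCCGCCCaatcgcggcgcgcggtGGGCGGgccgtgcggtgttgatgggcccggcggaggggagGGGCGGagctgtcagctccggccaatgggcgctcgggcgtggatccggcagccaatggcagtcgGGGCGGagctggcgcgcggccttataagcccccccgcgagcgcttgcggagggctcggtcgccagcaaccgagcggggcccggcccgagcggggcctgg
EHMT2, chr6:31897649-31897948, minus strand: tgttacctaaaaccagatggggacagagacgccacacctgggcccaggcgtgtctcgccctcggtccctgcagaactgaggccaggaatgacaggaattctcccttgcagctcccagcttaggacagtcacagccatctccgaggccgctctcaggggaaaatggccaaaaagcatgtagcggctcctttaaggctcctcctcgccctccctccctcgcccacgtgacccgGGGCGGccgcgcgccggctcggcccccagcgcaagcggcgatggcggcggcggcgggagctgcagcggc
SUV39H2, chr10:14878616-14878915, plus strand: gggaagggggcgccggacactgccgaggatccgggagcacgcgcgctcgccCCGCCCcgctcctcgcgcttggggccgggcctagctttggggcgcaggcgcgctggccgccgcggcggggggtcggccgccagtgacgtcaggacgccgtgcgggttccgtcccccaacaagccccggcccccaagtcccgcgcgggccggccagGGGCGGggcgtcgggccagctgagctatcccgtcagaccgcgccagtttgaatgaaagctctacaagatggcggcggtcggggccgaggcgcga

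The KMT2C window held 15 GC boxes and 88.7% G and C, the EHMT1 window 4 boxes and 79.3%, and the KDM4B window 4 boxes and 76.7%. The EHMT2 window held 1 box and 66.7%, and the SUV39H2 window, of the gene that rose, 2 boxes and 76.3%. RefSeq windows were matched for 33 of the 36 genes, all but DOT1L, SETD1B and NSD3. A GC box stood in 26 of the 33 (78.8%), in 57.8% of the 15384 tested genes with a window, and in 43.8% of all 27305 windows. The box stood in 16 of the 21 genes that were lower in both lines (76.2%) and in 10 of the 12 others (83.3%), which include 4 genes called lower in TC32 alone. The 21 had a median of 2 boxes and 72.7% G and C, and the 12 had a median of 1 box and 66.4%. SETDB1, which fell, had the lowest G and C content of the 33 at 49.0% and no GC box in its window. Across the 33 genes the Spearman correlation of G and C content with the log2 fold change was -0.29 in TC71 and -0.20 in TC32, and across the 15384 genes -0.05 and -0.06. These are descriptions, since the genes share the same 12 arrays.

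Of the 7 writers of H3K9 methylation, 3 fell and 1 rose in each line at the brightest set. That is 42.9% lower, against 16.1% of all genes in TC71 and 19.4% in TC32. It is 14.3% higher, against 19.4% and 25.6%. Of the 3 that fell, EHMT1 alone had every set called lower. EHMT1, which pairs with EHMT2 in the complex that places most H3K9 mono- and dimethylation in euchromatin, stood at 4.79, 4.70 and 4.65 on the TC71 mithramycin arrays, against 7.61, 7.62 and 7.45 on the TC71 control arrays. The TC32 arrays read 6.50, 7.01 and 6.82 with mithramycin and 8.57, 8.64 and 8.59 in controls. The groups did not overlap in either line, and the treated TC71 arrays came close to the array medians, where sizes are uncertain. EHMT1 fell, with changes of -2.85 ± 0.11 in TC71 (adjusted p = 2.94e-09) and -1.82 ± 0.11 in TC32 (adjusted p = 6.42e-08), or 7.21-fold and 3.54-fold. Both of its dimmer probe sets were also called lower, at -0.49 and -0.58 in TC71 and at -0.81 and -1.07 in TC32. EHMT2 stood between 7.07 and 7.21 on the TC71 mithramycin arrays and between 7.10 and 7.18 on the TC71 control arrays, with a change of -0.03 ± 0.06 (adjusted p = 0.746). In TC32 its change was 0.14 ± 0.06 (adjusted p = 0.0616), with 7.09, 7.02 and 7.02 on the mithramycin arrays and 6.89, 6.86 and 6.96 on the control arrays, which did not overlap.

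PRDM2, which carries a PR domain related to the SET domain, stood at 6.61, 6.73 and 6.60 on the TC71 mithramycin arrays and at 7.68, 7.65 and 7.73 on the TC71 control arrays. On the TC32 arrays the values were 6.50, 6.48 and 6.36 with mithramycin and 8.02, 7.99 and 8.10 in controls. All treated arrays were lower than all control arrays, and the brightest set fell, with changes of -1.04 ± 0.06 in TC71 and -1.59 ± 0.06 in TC32. Its probe sets disagreed. The next set in brightness was at -0.45 in TC71 and 0.02 in TC32, and a further one at 0.03 in TC71 and 0.69 ± 0.07 in TC32, where it was called higher (adjusted p = 5.76e-06). The sets therefore do not give PRDM2 a single direction, and which transcripts they match was not tested.

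SETDB1, which trimethylates H3K9 at retroelements together with TRIM28, stood at 5.84, 5.70 and 5.91 on the TC71 mithramycin arrays and at 6.65, 6.60 and 6.62 on the TC71 control arrays. In TC32 cells it was at 6.05, 5.78 and 6.01 with mithramycin and at 6.92, 7.07 and 6.97 in controls. The arrays did not overlap, and it fell, with changes of -0.81 ± 0.08 in TC71 and -1.04 ± 0.08 in TC32, whereas its other set was at 0.07 and -0.003. Its relative SETDB2 was at -0.14 ± 0.16 in TC71 (adjusted p = 0.552) and -0.05 ± 0.16 in TC32 (adjusted p = 0.837), and of its 5 dimmer sets 1 was called higher in TC71 at 0.41 and 1 lower in TC32 at -0.34.

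The SUV39H enzymes, which trimethylate H3K9 in pericentromeric heterochromatin, were not among the falls. SUV39H1 was at -0.03 ± 0.06 in TC71 (adjusted p = 0.708) and -0.11 ± 0.06 in TC32 (adjusted p = 0.161). SUV39H2 stood at 8.53, 8.57 and 8.55 on the TC71 mithramycin arrays and at 8.26, 8.34 and 8.25 on the TC71 control arrays. TC32 values were 8.55, 8.82 and 8.65 with mithramycin and 8.48, 8.44 and 8.40 in controls. It rose by 0.26 ± 0.07 in TC71 (adjusted p = 8.94e-03) and by 0.24 ± 0.07 in TC32 (adjusted p = 0.0137). With centring on housekeeping genes it was at 0.14 and 0.11 and was not called, and with centring on hybridization controls it was at 0.08 in TC32 and not called. Its other set was at 0.01 in TC71 and -0.29 in TC32.

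**Figure D2:**
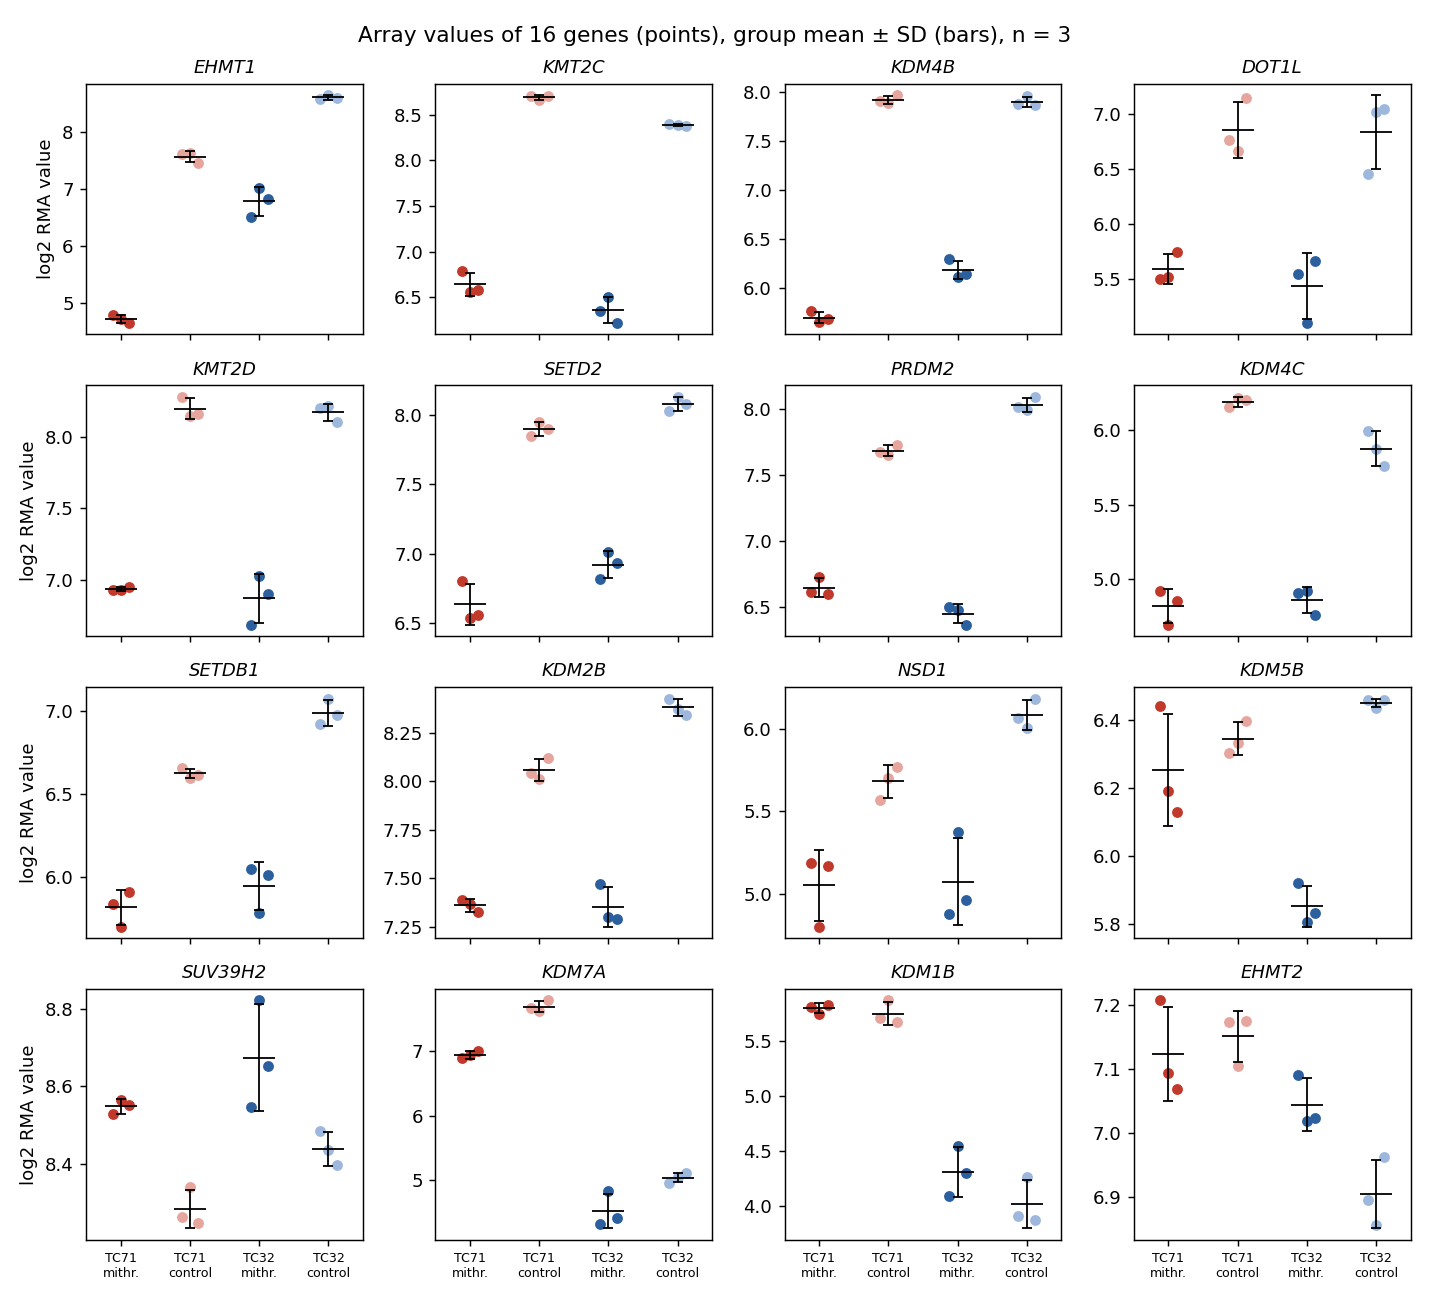
Log2 RMA value of each array for 16 genes, with TC71 mithramycin, TC71 control, TC32 mithramycin and TC32 control from left to right. Points are arrays, and horizontal lines with bars are the group mean and SD (n = 3); each panel has its own axis, which does not start at 0. For KMT2C the treated arrays lie between 6.22 and 6.79 and the control arrays between 8.37 and 8.71, while those of EHMT2 overlap in TC71.

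Of 7 H3K4 writers and relatives, 5 fell in TC71 and 6 in TC32, against 16.1% and 19.4% of all genes. KMT2C, a catalytic subunit of the complexes that monomethylate H3K4 at enhancers, stood at 6.79, 6.56 and 6.58 on the TC71 mithramycin arrays, against 8.71, 8.66 and 8.70 on the TC71 control arrays. The TC32 arrays read 6.35, 6.50 and 6.22 with mithramycin and 8.39, 8.39 and 8.37 in controls. The groups lay far apart in each line. KMT2C fell, with changes of -2.05 ± 0.08 in TC71 (adjusted p = 3.19e-09) and -2.03 ± 0.08 in TC32 (adjusted p = 2.52e-09), or 4.14-fold and 4.07-fold. Its 4 brighter probe sets fell, with changes of -2.05 to -1.36 in TC71 and -2.03 to -1.15 in TC32, and the 2 sets with means of 2.53 and 2.37 were not called.

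KMT2D, its close relative in the same kind of complex, stood at 6.93, 6.93 and 6.95 on the TC71 mithramycin arrays and at 8.28, 8.15 and 8.16 on the TC71 control arrays. On the TC32 arrays the values were 6.69, 7.03 and 6.90 with mithramycin and 8.20, 8.21 and 8.10 in controls. It fell, with changes of -1.25 ± 0.08 in TC71 and -1.30 ± 0.08 in TC32 (adjusted p = 1.71e-07 and 9.10e-08). Of its 6 sets, 3 were lower in TC71 and 2 in TC32, and the others ranged up to 0.15 in TC71 and 0.29 in TC32 without a call.

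Smaller falls were called for KMT2A, the founding member of the family, at -0.62 ± 0.07 in TC71 and -0.72 ± 0.07 in TC32, and for SETD1B, which trimethylates H3K4 at promoters, at -0.52 ± 0.06 and -0.66 ± 0.06. KMT2E, a relative best known as a reader of H3K4 methylation, fell, with changes of -0.37 ± 0.07 in TC71 and -0.59 ± 0.07 in TC32. KMT2A has 11 probe sets. The 5 brightest fell in both lines, with changes of -0.62 to -0.32 in TC71 and -0.72 to -0.34 in TC32, and 1 dimmer set was called higher, at 0.62 in TC71 and 0.43 in TC32. SETD1A, the partner enzyme of SETD1B, was at -0.18 ± 0.11 in TC71 and -0.24 ± 0.11 in TC32 and was not called. SETD7, which also methylates proteins other than histones, was at -0.08 ± 0.06 in TC71 (adjusted p = 0.328) and fell by 0.27 ± 0.06 in TC32 (adjusted p = 2.86e-03), while its dimmer set was called lower in both lines, at -0.61 and -0.73.

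The 4 H3K36 writers measured among the 36 genes, SETD2 and the NSD genes, fell in each line. Of all genes, 16.1% were lower in TC71 and 19.4% in TC32. SETD2, the enzyme of H3K36 trimethylation in transcribed gene bodies, stood at 6.81, 6.54 and 6.56 on the TC71 mithramycin arrays and at 7.85, 7.95 and 7.90 on the TC71 control arrays. In TC32 cells it was at 6.82, 7.02 and 6.93 with mithramycin and at 8.03, 8.13 and 8.08 in controls. It fell, with changes of -1.26 ± 0.08 in TC71 (adjusted p = 1.39e-07) and -1.16 ± 0.08 in TC32 (adjusted p = 1.99e-07), and its 3 probe sets agreed, with changes of -1.36 to -0.97 in TC71 and -1.24 to -1.01 in TC32. NSD1, which dimethylates H3K36, stood at 5.19, 4.80 and 5.17 on the TC71 mithramycin arrays and at 5.57, 5.70 and 5.77 on the TC71 control arrays. TC32 values were 4.88, 5.38 and 4.97 with mithramycin and 6.07, 6.00 and 6.18 in controls. It fell, with changes of -0.63 ± 0.13 in TC71 and -1.01 ± 0.13 in TC32, but another of its 4 sets was called higher in TC71, at 0.62 ± 0.07. With the mean of its sets the change in TC71 was -0.07 and was not called.

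NSD2, a relative of NSD1, fell, with changes of -0.69 ± 0.06 in TC71 and -0.56 ± 0.06 in TC32. Its 6 probe sets agreed in direction, with changes of -0.89 to -0.47 in TC71 and -1.14 to -0.44 in TC32. NSD3, another of this family, fell, with changes of -0.48 ± 0.08 in TC71 and -0.40 ± 0.08 in TC32 at its brightest set. A dimmer set of NSD3 fell further, with changes of -1.78 ± 0.12 in TC71 and -2.05 ± 0.12 in TC32, so the brightest set gives the smaller change.

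DOT1L, the H3K79 methyltransferase, stood at 5.51, 5.52 and 5.75 on the TC71 mithramycin arrays and at 6.77, 6.67 and 7.15 on the TC71 control arrays. The TC32 arrays read 5.55, 5.10 and 5.67 with mithramycin and 6.46, 7.02 and 7.05 in controls. Its standard error was larger than that of the other 35 genes, yet the groups did not overlap. DOT1L fell, with changes of -1.27 ± 0.18 in TC71 (adjusted p = 1.90e-04) and -1.40 ± 0.18 in TC32 (adjusted p = 6.58e-05), and the next set in brightness fell, with changes of -0.99 and -0.97.

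Of the 3 PRC2 subunits among the 36 genes, 2 were called lower in TC71 and 3 in TC32. Over all genes, 16.1% and 19.4% were lower. The other core subunits were measured outside the 36 and are named after their values were seen. EZH2, the main catalytic subunit in dividing cells, was called lower in TC71, at -0.17 ± 0.06 (adjusted p = 0.0471), and was at -0.05 ± 0.06 in TC32 (adjusted p = 0.523). RBBP4, a histone-binding subunit, rose by 0.31 ± 0.09 in TC71 (adjusted p = 0.0209) and was at 0.19 ± 0.09 in TC32 (adjusted p = 0.120). RBBP7, also a histone-binding subunit, was at 0.03 in TC71 and 0.03 in TC32. In TC71 the called changes of core PRC2 subunits thus went both ways. SUZ12, the scaffold of PRC2, fell, with changes of -0.74 ± 0.05 in TC71 (adjusted p = 1.82e-07) and -0.60 ± 0.05 in TC32 (adjusted p = 7.24e-07). EED, the subunit that reads H3K27 trimethylation, fell, with changes of -0.35 ± 0.06 in TC71 and -0.40 ± 0.06 in TC32 at its brightest set, and its dim second set, with a mean of 4.23, was at 0.79 in TC71 and 0.25 in TC32. EZH1, one of the catalytic subunits, fell by 0.27 ± 0.07 in TC32 (adjusted p = 0.0111) and was at -0.19 ± 0.07 in TC71 (adjusted p = 0.0652). The EZH1 sets disagreed in TC32, where 1 set was called higher at 0.30 and others were lower, down to -1.15, and in TC71 a dim set was called lower at -0.62. Of the H4K20 writers, KMT5B, which adds further methyl groups, fell, with changes of -0.42 ± 0.06 in TC71 and -0.72 ± 0.06 in TC32. KMT5A, which adds the first methyl group, was at -0.11 ± 0.06 in TC71 and -0.11 ± 0.06 in TC32 (adjusted p = 0.214 and 0.177). Of its dimmer sets 2 were called lower in TC32, at -0.27 and -0.31. The set at -0.31 was also called lower in TC71, at -0.33. With the mean of its sets KMT5A was called lower in both lines, at -0.16 in TC71 and -0.20 in TC32.

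Of the 10 erasers with a JmjC domain, 8 fell in TC71 and 10 in TC32, against 16.1% and 19.4% of all genes. Of the 2 flavin-dependent erasers, 0 were called in either line, and the classes were not tested against each other. KDM4B, which removes H3K9 trimethylation, stood at 5.76, 5.65 and 5.68 on the TC71 mithramycin arrays, against 7.91, 7.89 and 7.97 on the TC71 control arrays. On the TC32 arrays the values were 6.29, 6.12 and 6.15 with mithramycin and 7.87, 7.95 and 7.86 in controls. KDM4B fell, with changes of -2.22 ± 0.06 in TC71 (adjusted p = 3.40e-10) and -1.71 ± 0.06 in TC32 (adjusted p = 1.53e-09), or 4.66-fold and 3.27-fold. Of its 8 sets, 4 were lower in TC71 and 4 in TC32 and 0 were higher. Without the _x_at and _s_at sets the brightest remaining one, with a mean of 4.81, was at -0.01 in TC71 and 0.04 in TC32, while a set with a mean of 4.79 fell, with changes of -1.39 and -1.11.

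KDM4C, from the same family, stood at 4.92, 4.69 and 4.85 on the TC71 mithramycin arrays and at 6.16, 6.22 and 6.21 on the TC71 control arrays. In TC32 cells it was at 4.90, 4.92 and 4.76 with mithramycin and at 6.00, 5.87 and 5.76 in controls. It fell, with changes of -1.38 ± 0.08 in TC71 and -1.02 ± 0.08 in TC32, and its treated arrays also lay near the array medians. KDM4A, of the same family, fell, with changes of -0.38 ± 0.08 in TC71 and -0.60 ± 0.08 in TC32.

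KDM2B, which removes H3K36 methylation and brings Polycomb complexes to CpG islands, stood at 7.39, 7.36 and 7.33 on the TC71 mithramycin arrays and at 8.04, 8.01 and 8.12 on the TC71 control arrays. TC32 values were 7.47, 7.30 and 7.29 with mithramycin and 8.43, 8.37 and 8.34 in controls. It fell, with changes of -0.70 ± 0.06 in TC71 and -1.03 ± 0.06 in TC32. Its relative KDM2A fell, with changes of -0.45 ± 0.07 and -0.42 ± 0.07 at the brightest of 3 sets, and neither of the others was called. KDM5A, an eraser of H3K4 trimethylation, fell, with changes of -0.49 ± 0.07 in TC71 and -0.43 ± 0.07 in TC32, and 3 of its 4 dimmer sets fell by more. KDM3B, an eraser of H3K9 methylation, fell, with changes of -0.41 ± 0.05 in TC71 and -0.36 ± 0.05 in TC32.

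KDM5B, the relative of KDM5A, stood at 6.44, 6.19 and 6.13 on the TC71 mithramycin arrays and at 6.31, 6.33 and 6.40 on the TC71 control arrays. The TC32 arrays read 5.92, 5.81 and 5.83 with mithramycin and 6.46, 6.44 and 6.46 in controls. The groups overlapped in TC71 and lay apart in TC32. Its change was -0.09 ± 0.07 in TC71 (adjusted p = 0.383), and it fell by 0.60 ± 0.07 in TC32 (adjusted p = 4.24e-05). In TC71 the next 2 sets in brightness were called lower, at -0.34 and -0.43, against -0.68 and -0.53 in TC32. KDM6B, which removes H3K27 methylation, was at -0.10 ± 0.06 in TC71 and fell by 0.31 ± 0.06 in TC32, and KDM7A, which acts on H3K9 and H3K27 methylation, fell, with changes of -0.75 ± 0.11 in TC71 and -0.52 ± 0.11 in TC32. The flavin-dependent KDM1A, the eraser of H3K4 methylation in the CoREST complex, was at 0.10 ± 0.05 in TC71 (adjusted p = 0.142) and 0.02 ± 0.05 in TC32 (adjusted p = 0.753), and its TC71 mithramycin arrays lay above the controls. Its relative KDM1B was at 0.05 ± 0.12 in TC71 and 0.30 ± 0.12 in TC32 (adjusted p = 0.797 and 0.0631).

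The choice of probe set bears on these values, and sets are described by brightness with calls adjusted over all 54675 sets. Of the 58 sets with a mean of at least 6, 41 were lower and 1 higher in TC71, and 45 were lower and 2 higher in TC32. Of the 35 sets with a mean under 4.4, 8 were lower and 2 higher in TC71, and 9 were lower and 0 higher in TC32. The median change was -0.45 in TC71 and -0.52 in TC32 for the brighter sets, and -0.02 and 0.03 for the dimmer ones. The shares of all sets called at each brightness were not worked out. Over all genes 16.1% were lower in TC71 and 19.4% in TC32. In the separate fit of genes with a mean of at least 6, 31.2% and 36.0% were lower. Whether the contrast of brighter and dimmer sets is particular to these genes was not tested. Over the 31 genes with several sets, 3 in each line had sets called in opposite directions, namely KMT2A, NSD1 and EED in TC71 and KMT2A, PRDM2 and EZH1 in TC32. With the mean of all sets of a gene 26 genes were lower in TC71 and 28 in TC32, and 0 were higher in each. Of all 19775 genes, 2957 were then lower and 4187 higher in TC71, and 3579 lower and 5276 higher in TC32.

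**Figure D3:**
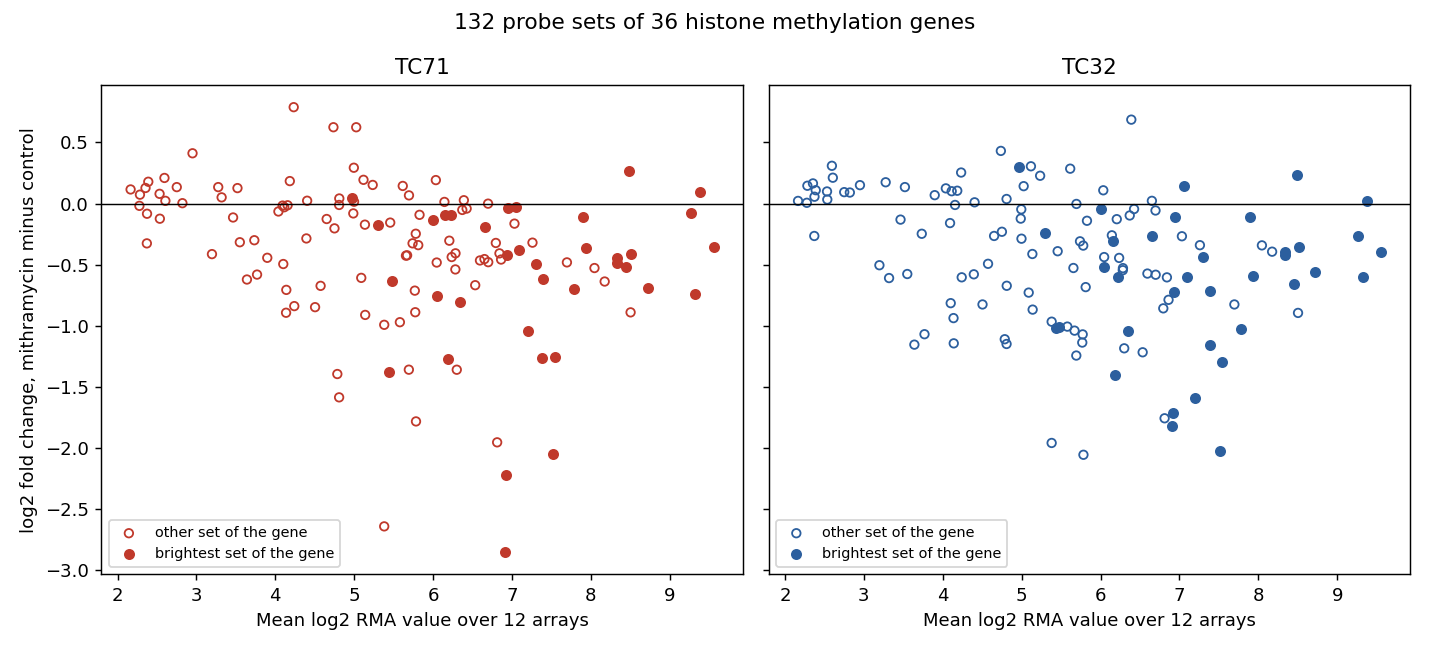
Log2 fold change with mithramycin of the 132 probe sets of the 36 genes against their mean log2 RMA value over 12 arrays, TC71 left and TC32 right. Filled points are the brightest set of each gene and open points the others. Points with a mean under 4.4 have a median of -0.02 in TC71 and 0.03 in TC32, and changes below -1.5 lie at means between 4.81 and 7.52.

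The response differed between the lines for 6 of the 36 genes by the test of the difference (TC71 effect minus TC32 effect). The difference was lower than 0 for 2 genes (3.72% of all genes) and higher for 4 (6.27% of all genes). EHMT1 fell further in TC71, with a difference of -1.03 ± 0.15 (adjusted p = 1.00e-03), and so did KDM4B, with -0.51 ± 0.09 (adjusted p = 2.49e-03). At the brightest set PRDM2 and KDM5B had the smaller fall or change in TC71, with differences of 0.55 ± 0.08 (adjusted p = 1.39e-03) and 0.51 ± 0.11 (adjusted p = 9.69e-03). KMT5B and KDM2B also fell less in TC71, by differences of 0.30 ± 0.08 and 0.33 ± 0.09 (adjusted p = 0.0291 and 0.0329), and omitting single arrays in turn lost the call in 7 and 9 of 12 fits. Both other sets of KMT5B gave differences called at 0.53 and 0.62, while the other sets of KDM5B were not called, at -0.04 to 0.34. Averaging the probe sets gave -0.07 for EHMT1 (adjusted p = 0.65) and -0.13 for PRDM2. KDM4B and KDM5B were then at -0.25 (adjusted p = 0.0683) and 0.23 (adjusted p = 0.0888). The calls for EHMT1 and KDM5B thus rest on the brightest set. For PRDM2, other sets were called the opposite way, at -0.66 (limma adjusted p = 1.285e-03) and -0.48 (limma adjusted p = 0.0499). Its sets therefore give the line difference no single direction. For KDM4B, other sets were also called, at -0.68 (limma adjusted p = 6.00e-03) and -0.51 (limma adjusted p = 0.0490), and its remaining sets were not. Without the _x_at and _s_at sets KDM4B was at -0.05 (adjusted p = 0.893), and with hybridization control centring at -0.27 (adjusted p = 0.205). The other EHMT1 sets had differences of 0.32 and 0.49 and were not called. KMT2C, at -0.02 ± 0.11, and KMT2D, at 0.04 ± 0.11, were not called.

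The lines also differed before treatment. Of the 36 genes, 15 were lower and 8 higher in TC71 controls than in TC32 controls, against 24.8% and 26.7% of all genes. KDM7A stood 2.66 ± 0.11 higher in TC71 controls (adjusted p = 5.50e-10), at 7.67, 7.63 and 7.79 on the TC71 control arrays and at 4.96, 5.04 and 5.10 on the TC32 control arrays. With mithramycin KDM7A stood at 6.89, 6.94 and 7.01 in TC71 and at 4.32, 4.83 and 4.41 in TC32, so the gap between the lines remained. Those TC32 values of KDM7A lay around the medians of their arrays. The sizes of its gap with mithramycin and of its fall in TC32 are therefore uncertain. KDM1B stood 1.73 ± 0.12 higher in TC71 controls (adjusted p = 8.06e-08), at 5.71, 5.87 and 5.67 against 3.91, 4.27 and 3.87 on the TC32 control arrays. On the mithramycin arrays KDM1B was at 5.81, 5.74 and 5.83 in TC71 and at 4.09, 4.54 and 4.30 in TC32. Since the TC32 levels of KDM1B lay around or under the medians of their arrays, the size of this gap is uncertain. SETDB2 was 1.59 ± 0.16 higher in TC71 controls, and NSD2 was 0.70 ± 0.06 higher.

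Genes that were lower in untreated TC71 included SETD1B, at -1.15 ± 0.06 from TC32, EHMT1 at -1.04 ± 0.11, KDM6B at -0.90 ± 0.06 and SUZ12 at -0.88 ± 0.05. KDM1A was at -0.79 ± 0.05 and KMT2A at -0.73 ± 0.07. KDM4B, at 0.02 ± 0.06, and KMT2D, at 0.02 ± 0.08, showed no called difference between the untreated lines, as did DOT1L at 0.02 ± 0.18. With centring on housekeeping genes, which moved the median of all genes by 0.18 in this contrast, 11 of the 36 were lower and 12 higher in TC71, against 16.0% and 40.4% of all genes. The beta-actin 3' minus 5' difference was larger on every TC71 control array than on the TC32 control arrays. With it in the model, 4 of the calls between untreated lines were lost, those of EHMT2, KMT2C, NSD1 and KMT5B.

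**Figure D4:**
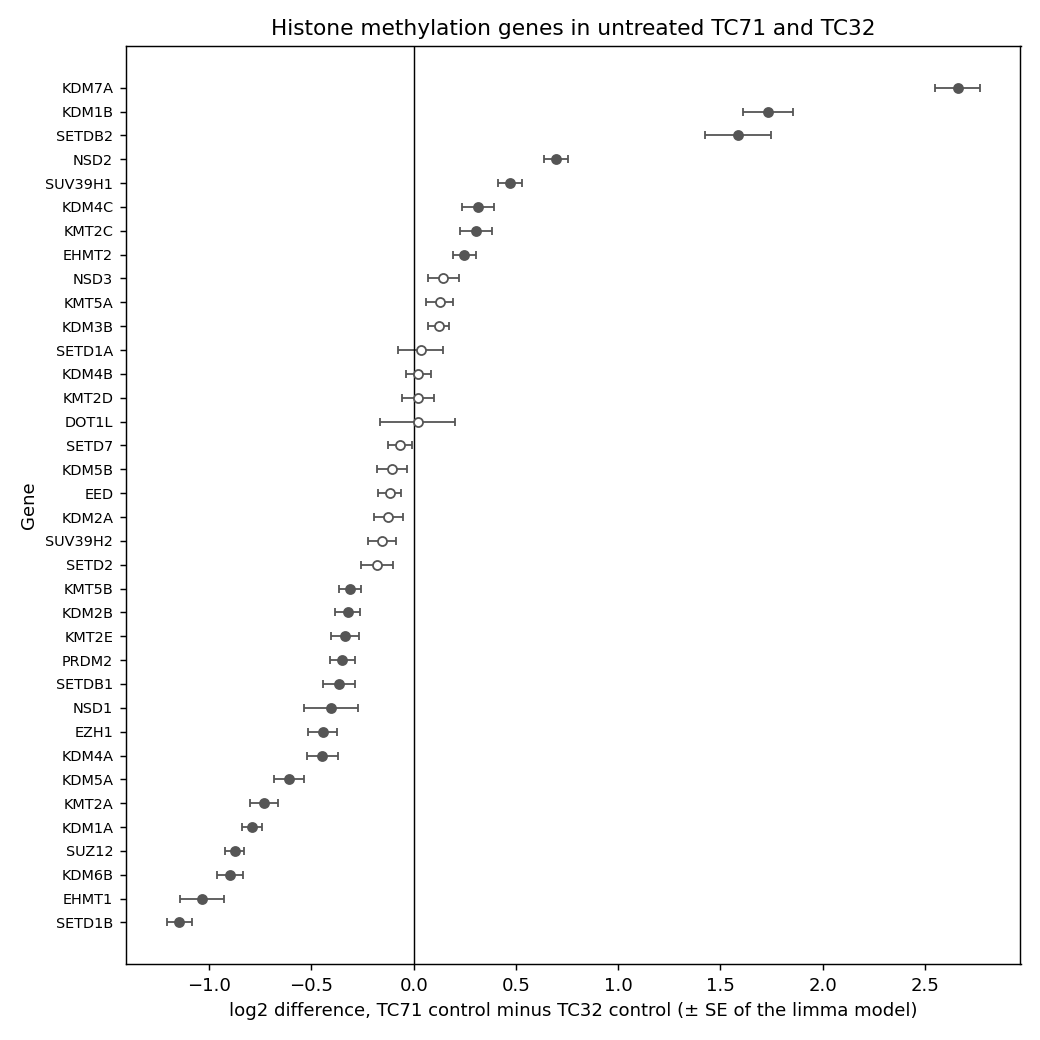
Log2 difference of each of the 36 genes between TC71 control and TC32 control, ordered by size. Points are means of 3 arrays against 3, bars are the standard error of the limma model, and filled points are called at an adjusted p under 0.05. KDM7A stands furthest to the right at 2.66 and SETD1B furthest to the left at -1.15.

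Among other genes of histone methylation calls went both ways. Of 26 further lysine writers and erasers, 10 were lower and 8 higher in TC71, and 8 were lower and 5 higher in TC32, with medians of 0.01 and 0.05. These are 38.5% lower in TC71 and 30.8% in TC32, against 16.1% and 19.4% of all genes, and 30.8% and 19.2% higher, against 19.4% and 25.6%. Of the 26, 61.5% had a mean of at least 6, against 42.4% of all genes. KDM6A, an eraser of H3K27 methylation, fell, with changes of -1.66 ± 0.12 in TC71 and -1.83 ± 0.12 in TC32, with all 4 of its sets below 0. JMJD1C, a JmjC protein, fell, with changes of -0.95 ± 0.08 and -1.57 ± 0.08, and SETD5, a SET domain protein, was called lower at -0.81 ± 0.06 and -1.22 ± 0.06, with other sets of JMJD1C up to 0.38 and 0.46 and of SETD5 up to 0.31 and 0.25. The JmjC eraser KDM4D, a relative of KDM4A, KDM4B and KDM4C, rose by 0.79 ± 0.09 in TC71 and 0.74 ± 0.09 in TC32, and both of its sets were above 0. SETMAR, a SET domain protein fused to a transposase and reported to methylate H3K36, rose by 0.66 ± 0.07 and 0.41 ± 0.07, with another of its 3 sets at -0.85 in TC32, and RIOX1, a JmjC protein of the nucleolus, rose by 0.49 ± 0.05 and 0.30 ± 0.05.

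Of 27 partner subunits, 12 were lower and 6 higher in TC71, and 14 were lower and 6 higher in TC32. The lower shares are 44.4% in TC71 and 51.9% in TC32, against 16.1% and 19.4% of all genes. In each line 22.2% were higher, against 19.4% of all genes in TC71 and 25.6% in TC32. All 27 had a mean of at least 6. In the separate fit over genes with such a mean, 31.2% were lower in TC71 and 36.0% in TC32, and 33.1% and 35.4% were higher. MLLT10, a cofactor of DOT1L, fell, with changes of -2.05 ± 0.07 in TC71 and -2.20 ± 0.07 in TC32, with the weakest of its 8 sets at 0.03 and 0.17. JARID2, an accessory subunit of PRC2, fell, with changes of -1.93 ± 0.08 and -1.42 ± 0.08, with its weakest set at -0.14 and 0.02. RCOR1, the CoREST scaffold that holds KDM1A, fell, with changes of -1.45 ± 0.08 and -1.80 ± 0.08, with its second set at -0.63 and -0.17. TRIM28, the partner of SETDB1, rose by 0.27 ± 0.05 and 0.34 ± 0.05, the PRC2 accessory subunit PHF1 by 0.23 ± 0.05 and 0.38 ± 0.05, and MEN1, a subunit of the KMT2A complex, by 0.25 ± 0.05 and 0.30 ± 0.05. DOT1L and MLLT10 thus both fell, while KDM1A was not called and RCOR1 fell.

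Of 27 measured readers and subunits of Polycomb repressive complex 1 (PRC1), 9 were lower and 4 higher in TC71, and 14 were lower and 2 higher in TC32. The lower shares are 33.3% in TC71 and 51.9% in TC32, against 16.1% and 19.4% of all genes. The higher shares are 14.8% and 7.41%, against 19.4% and 25.6%. Of the 27, 88.9% had a mean of at least 6. In the separate fit over genes with such a mean, 31.2% were lower in TC71 and 36.0% in TC32, and 33.1% and 35.4% were higher. PCGF3, a subunit of variant PRC1, fell, with changes of -1.44 ± 0.06 in TC71 and -1.51 ± 0.06 in TC32, and the readers PHF20 and L3MBTL3 were called lower, PHF20 at -1.35 ± 0.07 and -1.19 ± 0.07 and L3MBTL3 at -1.11 ± 0.08 and -0.95 ± 0.08. PCGF3 and PHF20 each had a set near 0 in both lines. The heterochromatin protein CBX5 rose by 0.25 ± 0.06 and 0.41 ± 0.06 and the H3K4 reader ING1 by 0.32 ± 0.05 and 0.34 ± 0.05, each with another set below 0. ING2 rose by 0.24 ± 0.07 in TC71 and was at 0.18 ± 0.07 in TC32.

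Of 10 genes of arginine methylation, 4 were lower and 2 higher in TC71, and 1 was lower and 2 higher in TC32. The lower shares are 40.0% in TC71 and 10.0% in TC32, against 16.1% and 19.4% of all genes. PRMT6 fell, with changes of -0.29 ± 0.09 in TC71 and -0.94 ± 0.09 in TC32. CARM1 fell by 0.35 ± 0.07 in TC71 and was at -0.16 ± 0.07 in TC32, and PRMT8 fell by 0.53 ± 0.15 in TC71 and was at 0.20 ± 0.15 in TC32. PRMT5, the main enzyme of symmetric arginine dimethylation, rose by 0.27 ± 0.06 and 0.45 ± 0.06. PRMT7 was at 0.11 ± 0.08 in TC71 and rose by 0.40 ± 0.08 in TC32, and PRMT2 rose by 0.27 ± 0.07 in TC71 and was at 0.08 ± 0.07 in TC32. Centring on housekeeping genes lowers each of these changes by 0.12 in TC71 and 0.13 in TC32.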

How the data were processed

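RNA from 12 samples of 2 human cell lines was measured on 1-colour arrays. The authors deposited log2 expression values for each array, and the submitters' processing notes name RMA, with version and settings not given. RMA equalizes the probe distributions of the arrays, so a shift shared by most genes is largely removed. No detection calls or batch labels were used, so signal over background and batches were not tested, and the number of arrays limits the precision. Of 54675 sets, 41091 carry 1 gene symbol in the platform annotation, 1801 several and 11721 none; 62 are control sets. Symbols were checked through Entrez identifiers for 41037 sets.

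All 19775 genes entered a limma 3.58.1 model (R 4.3.3) with a mean for each of 4 groups over 12 arrays, empirical Bayes moderation and two-sided p-values with Benjamini-Hochberg adjustment (threshold 0.05). The fit was tested on simulated data. Alternatives were the mean of a gene's sets, no _x_at and _s_at sets, a mean of at least 6, renewed quantile normalization, centring on 13 housekeeping genes or 18 hybridization control sets, trend and robust moderation, only the arrays compared, a replicate block, a beta-actin covariate and leaving out each array. The genes and lists were chosen with earlier results of these data known. Every one of the 36 genes is named. Array values are given for those called with a change of at least 1, those with the 4 smallest adjusted p of the line difference, those called higher and the 2 with the largest gap between the untreated lines. Of each further list the 3 called genes with the largest mean fall and the 3 with the largest mean rise are named.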

Additional observations from a re-analysis of the deposited data

Results flagged for a closer look

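The response of 6 of the 36 genes differed between TC71 and TC32 by the test of the difference itself (TC71 effect minus TC32 effect, limma adjusted p under 0.05). The differences were -1.03 for EHMT1, 0.55 for PRDM2, -0.51 for KDM4B, 0.51 for KDM5B, 0.30 for KMT5B and 0.33 for KDM2B. At the brightest set, all but KDM5B were called lower with mithramycin in each line, and KDM5B was called lower in TC32 and was not called in TC71. Over all alternatives run, the difference of EHMT1 lay between -1.17 and -0.07, that of PRDM2 between -0.66 and 0.78, that of KDM4B between -0.59 and -0.05, that of KDM5B between 0.23 and 0.74, that of KMT5B between 0.23 and 0.54 and that of KDM2B between 0.29 and 0.57. The sign of the PRDM2 difference thus depends on the probe set. Over the 12 fits that each omitted 1 array, the KMT5B and KDM2B calls were lost in 7 and 9.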

How the results depend on the processing

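The counts of lower genes stayed within 1.5 times of 24 in TC71 and 28 in TC32 under every alternative run, from 18 to 29 and from 24 to 31, with 31 and 32 of the 36 genes left by the set filter and the filter on the mean. The count of higher genes, 1 in each line, was 0 in each line with the mean of sets and with housekeeping centring, and 2 in each line without the _x_at and _s_at sets and with a mean of at least 6. In TC32 it was also 2 with quantile normalization, 2 with the replicate block, 0 with hybridization control centring and 0 with only the arrays compared, and 1 to 2 when 1 array was left out. In TC71 it was also 0 with the beta-actin covariate. For the line difference, the 2 lower genes became 0 with the mean of sets and 1 with hybridization control centring. The 4 higher ones became 1 without the _x_at and _s_at sets, 2 with quantile normalization, 8 with hybridization control centring, 2 with the replicate block, 1 with the beta-actin covariate and 2 to 5 when 1 array was left out. The cause was not tested. Without the _x_at and _s_at sets PRDM2 was at 0.027 in TC71 and 0.69 in TC32, -0.66 in the line difference and 0.41 between the untreated lines, EED at 0.79 in TC71 and 0.25 in TC32, and KDM4B at 0.0371 in TC32. With the mean of sets EED was at 0.22 in TC71, SUV39H2 at -0.0262 in TC32, PRDM2 at -0.13 in the line difference, and EHMT2 and KMT5B at -0.0135 and 0.0592 between the untreated lines. In each of these cases other probe sets enter by construction. Over all genes, calls of higher genes in TC71 were 3828, against 1608 with housekeeping centring and 2158 with the beta-actin covariate. In TC32 they were 5060, against 2243, 1156 with hybridization control centring and 2966 with a mean of at least 6. In the line difference 736 lower and 1239 higher became 190 and 2531 with hybridization control centring and 409 and 796 with the covariate. Between untreated lines 4904 lower and 5281 higher became 3172 and 7991 with housekeeping centring, and 3178 were lower with a mean of at least 6. The replicate numbers were not used as pairs. Deviations of same-numbered arrays from their group means correlated between -0.07 and -0.01 in TC71 and between 0.04 and 0.24 in TC32, and not every array correlated best with its own number. With the number as a replicate block 24 genes were lower in TC71 and 29 in TC32, against 3111 and 3749 of all 19775 genes.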
